A study of Homo sapiens with 8 samples.

Results

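Messenger RNA of DNA damage signalling and repair genes was compared between A549 cells that had stained for β-galactosidase and cells that had not, all of them stretched beforehand. The genes are 37 named members of the repair and checkpoint machinery, taken by symbol from a count table of 13841 rows and sorted by arm: single-strand DNA binding, mismatch repair, homologous recombination, the Fanconi anaemia pathway, end joining, base excision with single-strand break repair, nucleotide excision repair and damage checkpoint signalling. Of these, 34 had a row, 1 each, and all 34 passed the filter on low counts; RPA3, BARD1 and ATR were not analysed here. A549 is an established line of human lung adenocarcinoma epithelium. Every group carried the same exposure, 24 h of cyclic stretch at 15% elongation and 15 cycles per min and then 6 days of culture, so stretch itself is not compared. The positive group held 4 libraries (numbers 1, 3, 4 and 5), which the labels call senescent, and the negative group held 4 (numbers 2, 6, 7 and 8). β-galactosidase staining is a lysosomal activity used as a sign of senescence, the lasting arrest of the cell cycle. All libraries come from 1 line, and no source used here says that they came from separate cultures, so a p-value measures only the spread between these libraries, which may be technical. Values are CPM, each library's counts scaled to a common size with TMM factors, and since each gene was read through a short amplicon, levels are compared between libraries and never between genes.

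DNA lesions are handled by separate routes that meet in a common alarm. Mismatch repair corrects copying errors, base excision removes damaged single bases, nucleotide excision cuts out bulky adducts, the Fanconi anaemia pathway unhooks crosslinks between strands, and broken ends are either rejoined directly by Ku and its partners or copied from the sister chromatid by homologous recombination. The kinases ATM and ATR, with CHEK2 and CHEK1 downstream, signal the break or the stalled fork to the cell cycle, and lasting signalling of this kind is a known route into senescence. Many of these genes, among them genes of recombination, mismatch repair and the Fanconi pathway, are transcribed most strongly in cells preparing for or passing through S phase. Their level can therefore also depend on how many cells are cycling.

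Depth ran from 5634961 to 7990839 counts per library, and the members had between 8 and 7308 counts each, with a median of 189. Libraries stood apart in both groups. Negative 2 held the highest value of 29.4% of all 11351 tested rows and the lowest of 26.2%, and positive 1 the highest of 23.9% and the lowest of 23.9%. S phase markers, a list of 24 genes of which 23 were tested, had a mean log2-CPM of 6.17 in negative 2 against 4.54 to 5.24 in the other 7 libraries, and 20 mitosis markers 6.18 against 4.67 to 5.40. Where leaving out negative 2 moved a member's estimate appreciably, both values are therefore given. Of 10 A549 and lung epithelium markers 9 had a row. Their summed level was 5524 to 6909 CPM in positive and 7046 to 8822 CPM in negative libraries, without overlap. The largest terms were AKR1B10 (means 2128 and 2700 CPM) and ALDH1A1 (1936 and 2474 CPM). All 8 tested markers had a lower mean in positive cells, but only 1, AKR1B10, had groups without overlap (12.5%, against 9.14% of all rows). KRT8 was at a mean of 623 and 892 CPM and the surfactant gene SFTPC at 0.197 and 0.108 CPM. The 6 fibroblast markers came to 19.4 to 20.5 and 18.8 to 22.2 CPM, 3 leukocyte markers (CD14, CD68 and LYZ) to 70.2 to 75.1 and 57.0 to 75.5 CPM, and the endothelial CDH5 to 0 to 1.18 and 0 to 0.998 CPM. The part of the epithelial sum and of cell cycling in the repair results was not tested.

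Across the members, median log2 fold changes were below 0 in every arm but homologous recombination and checkpoint signalling. RPA1, MSH6, RAD51C, XRCC5, PARP1 and LIG3 were lower in every positive library than in any negative library, and BRIP1 was higher in every positive library. After Benjamini-Hochberg adjustment of edgeR's quasi-likelihood p-values, 0 members and 0 of all 11351 rows (0%) came under 0.05. At an unadjusted p under 0.05 there were 10 of 34 members (29.4%), where the share over all tested rows was 14.4%. Of the 10, 8 were lower in positive cells (23.5%, against 6.85% of all rows) and 2 were higher (5.88%, against 7.52%). Groups did not overlap for 7 of 34 members (20.6%), against 9.14% of all rows; 6 had the negative group above (4.14% of all rows) and 1 the positive group (5% of all rows). The log2 fold change, positive over negative, was below 0 in 23 of 34 members (67.6%, against 51.9% of all rows), and its median was -0.20 against -0.02 over all rows. Because the members were chosen with earlier results of these data known, these shares describe the list and are no independent test of it. DESeq2's Wald test called 52 of all rows (0.458%) and no member, with RPA1 at an adjusted p of 0.0521 and BRIP1 at 0.0632, and limma voom called 0 rows (0%).

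Without negative 2 the members no longer lay mostly below 0, and a smaller set kept a low p. The median log2 fold change of the members was then 0.02, with 16 below 0 and 18 above. At an unadjusted p under 0.05 there were 6 of 34 members (17.6%, against 9.7% of all rows), all of them among the former 10: RPA1, MSH6, RAD51C, XRCC5 and PARP1 lower and BRIP1 higher. FANCI, UNG, APEX1 and RAD54B were no longer among them. The count was 6 as well without positive 4 (10.7% of all rows) and without positive 5 (13.1% of all rows). In bulk RNA, fewer cells expressing a gene and less RNA per cell cannot be told apart.

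**Figure D1:**
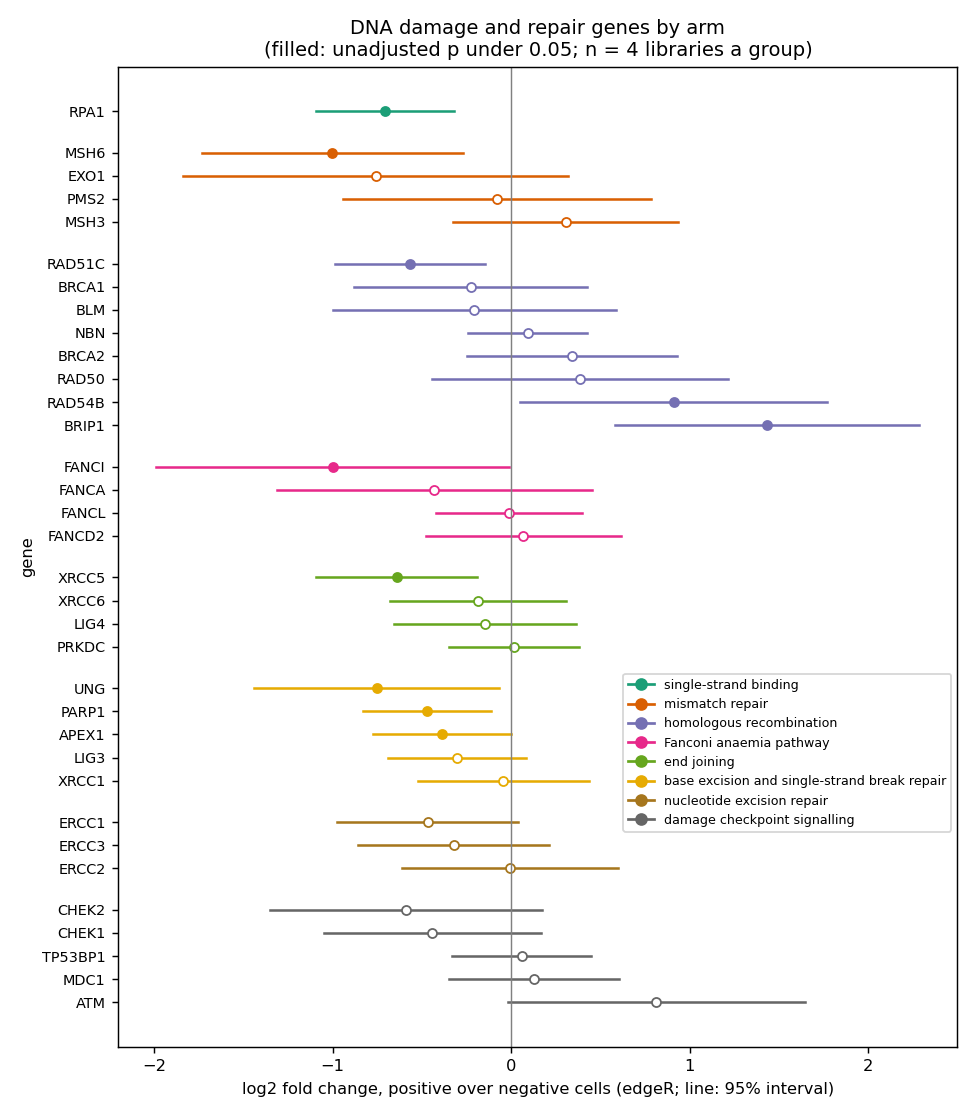
Log2 fold change of each of the 34 members, positive over negative cells (horizontal axis), with its 95% interval as a line, grouped and coloured by arm. Filled points are the 10 members at an unadjusted p under 0.05, 8 to the left of 0 and 2 (BRIP1 and RAD54B) to the right.

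Promoter sequence is shown for the members whose groups did not overlap, since these carry the comparison. RefSeq's promoter table for GRCh38.p14 held 29 of the 34 members and did not list XRCC5. For each gene the longest stretch of the 250 bases before the start that holds no annotated exon is printed 5′ to 3′ on the gene's strand. Capitals mark the motif CCAAT, bound by the factor NF-Y, which reads ATTGG when it lies on the opposite strand. They also mark the GC box, whose letters are GGGCGG, bound by factors of the Sp family, which reads CCGCCC when it lies on the opposite strand. For RPA1, MSH6 and LIG3 the RefSeq start lies within the span that GENCODE gives the gene. A match is a description of letters and not of binding.
RPA1, chr17:1829901-1829970, plus strand: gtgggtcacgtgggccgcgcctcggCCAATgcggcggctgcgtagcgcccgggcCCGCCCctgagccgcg
MSH6, chr2:47782895-47783081, plus strand: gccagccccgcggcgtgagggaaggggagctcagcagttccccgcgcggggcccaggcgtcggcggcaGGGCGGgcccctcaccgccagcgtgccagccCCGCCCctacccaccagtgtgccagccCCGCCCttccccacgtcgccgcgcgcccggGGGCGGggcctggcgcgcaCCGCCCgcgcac
RAD51C, chr17:58692323-58692572, plus strand: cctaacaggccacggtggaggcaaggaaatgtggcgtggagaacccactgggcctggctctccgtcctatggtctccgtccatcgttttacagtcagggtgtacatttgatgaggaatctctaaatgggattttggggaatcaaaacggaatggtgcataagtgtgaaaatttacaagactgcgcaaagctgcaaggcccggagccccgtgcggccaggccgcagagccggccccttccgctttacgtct
LIG3, chr17:34980262-34980493, plus strand: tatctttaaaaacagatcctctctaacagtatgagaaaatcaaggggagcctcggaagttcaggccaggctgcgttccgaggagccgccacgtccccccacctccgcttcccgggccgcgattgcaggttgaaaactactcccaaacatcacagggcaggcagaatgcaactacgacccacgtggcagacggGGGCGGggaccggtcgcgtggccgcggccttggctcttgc
PARP1, chr1:226408094-226408343, minus strand: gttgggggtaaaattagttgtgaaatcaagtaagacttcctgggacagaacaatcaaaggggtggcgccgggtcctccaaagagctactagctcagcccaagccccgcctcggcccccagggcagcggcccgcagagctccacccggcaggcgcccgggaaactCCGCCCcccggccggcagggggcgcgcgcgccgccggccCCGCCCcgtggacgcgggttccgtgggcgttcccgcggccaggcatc
BRIP1, chr17:61863529-61863778, minus strand: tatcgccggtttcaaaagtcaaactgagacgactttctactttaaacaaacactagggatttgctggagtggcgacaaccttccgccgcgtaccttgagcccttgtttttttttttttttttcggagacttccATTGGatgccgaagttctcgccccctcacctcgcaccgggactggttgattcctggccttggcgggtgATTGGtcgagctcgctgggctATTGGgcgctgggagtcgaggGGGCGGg
BRIP1, the member higher in positive cells, held 3 CCAAT matches, all on the other strand, and 1 GC box. Among the 5 that were lower, RPA1 had 1 CCAAT and 1 GC box in the printed stretch and MSH6 had 5 GC boxes. PARP1 had 2 GC boxes, LIG3 had 1 and RAD51C had neither motif. The printed stretches differ in length. In the whole 250 bases RPA1 had 3 GC boxes and MSH6 had 1 CCAAT match beside its GC boxes. No 2 capitalised matches overlap. Over whole windows of 250 bases, CCAAT was found in 15 of 29 members (51.7%) and in 35.4% of the 8418 tested genes with a promoter entry, and the GC box in 20 of 29 (69.0%) and 68.1%. An E2F site, searched as TTTGGCGC or TTTCCCGC or TTTGCCGC or TTTCGCGC on either strand, was found in 3 of 29 members (10.3%: MSH3, PMS2 and FANCA) and in 4.50% of tested genes. In no printed promoter was an E2F match found.

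RPA1 encodes the large subunit of replication protein A, which coats single-stranded DNA at forks and resected breaks and is the platform on which ATR is activated. It lies on chromosome 17 at 1829702 to 1900082 (GRCh38, GENCODE 29), on the plus strand. Its level was 73.9, 72.1, 71.4 and 68.4 CPM in positive 1, 3, 4 and 5 and 157, 106, 103 and 100.2 CPM in negative 2, 6, 7 and 8. The positive libraries lay within a few CPM of each other, and the lowest negative library stood well above all of them. The log2 fold change was -0.71 ± 0.18 (SE; edgeR adjusted p 0.309). Without negative 2 it was -0.51 (adjusted p 0.45), and it kept its sign under every one of the 19 alternatives. RPA2, the middle subunit, averaged 44.1 ± 5.65 CPM among positive and 64.1 ± 27.0 CPM among negative libraries (SD, n = 4). Its groups overlapped, with a log2 fold change of -0.54 (95% interval -1.09 to 0.01). The log2 ratio of RPA1 to RPA2 within a library, which no scaling can shift, was 0.70 ± 0.21 in positive and 0.92 ± 0.26 in negative libraries (exact two-sided permutation p = 0.257).

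In mismatch repair, MSH6, which recognises single mismatches, was lower in every positive library, whereas the groups of MSH3, which recognises larger loops, overlapped. MSH6 (chromosome 2, 47695530 to 47810101) was at 46.7, 46.5, 39.2 and 49.4 CPM in the positive libraries 1, 3, 4 and 5, and at 181, 61.8, 67.5 and 53.5 CPM in the negative libraries 2, 6, 7 and 8. The groups parted narrowly, at 49.4 against 53.5 CPM, with negative 2 far above the rest. Its log2 fold change was -1.002 ± 0.34 (SE; edgeR adjusted p 0.309), and -0.41 without negative 2. MSH3 averaged 8.36 ± 1.46 and 6.76 ± 2.58 CPM (SD, n = 4 each), at 0.31 (95% interval -0.32 to 0.94), and 0.16 without negative 2. EXO1, the exonuclease that removes the faulty strand, ranged from 2.75 to 3.504 CPM among positive and from 1.54 to 12.1 CPM among negative libraries, at -0.76 (-1.84 to 0.32), and at 0.06 without negative 2. PMS2, the endonuclease subunit that nicks the strand, ranged from 3.84 to 13.8 and from 5.75 to 15.4 CPM, at -0.08 (-0.94 to 0.79), and 0.18 without negative 2. PMS2 has named pseudogene copies in the annotation, between which its reads may have been divided, so its value is uncertain. Of the 4 members in this arm 3 were below 0, with a median of -0.42 that turned to 0.11 without negative 2.

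Members of the homologous recombination arm went both ways, with 3 of 8 below 0 and 5 above and a median of 0.22. Without negative 2 there were 1 below 0 (RAD51C) and 7 above, with a median of 0.26. BRIP1, a helicase that binds BRCA1 and unwinds structured DNA, had the largest estimate upward of all members. Its level was 11.01, 5.36, 7.19 and 9.44 CPM in positive 1, 3, 4 and 5 against 2.33, 3.38, 1.24 and 5.13 CPM in negative 2, 6, 7 and 8. Every positive library lay above every negative one, though positive 3 and negative 8 were close. In counts these are 41 to 72 reads against 8 to 36 reads. The log2 fold change was 1.44 ± 0.39 (SE; edgeR adjusted p 0.309), 1.34 without negative 2 and 1.27 without positive 1. BRIP1 lies on chromosome 17 at 61681266 to 61863521, on the minus strand. BRCA1, its partner and the scaffold of recombination and checkpoint complexes, ranged from 28.0 to 45.05 CPM among positive and from 27.6 to 71.5 CPM among negative libraries, with a log2 fold change of -0.23 (-0.88 to 0.43) that was 0.21 without negative 2. The log2 ratio of BRIP1 to BRCA1 was -2.02, -2.37, -1.98 and -1.98 in the positive libraries and -4.90, -3.19, -4.40 and -2.61 in the negative libraries, without overlap. Its means were 1.69 apart (p = 0.0286 by an exact two-sided permutation test, the lowest value this design allows). Benjamini-Hochberg adjustment over 8 partner ratios put it at 0.229. The ratios were chosen after the values were seen, which neither p-value takes into account. With positive 1, 3, 4 or 5 left out, the p-value of the same permutation test was 0.0571.

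RAD51C, which acts in strand exchange during recombination, went the other way. It lies on chromosome 17 at 58692573 to 58735611 and was at 34.0, 29.1, 34.1 and 34.5 CPM in positive 1, 3, 4 and 5 and at 64.1, 47.4, 37.4 and 45.9 CPM in negative 2, 6, 7 and 8. All positive libraries were below the lowest negative one. The log2 fold change was -0.56 ± 0.19 (SE; edgeR adjusted p 0.309) and -0.39 without negative 2. RAD54B, a motor protein that remodels recombination intermediates, was at 51.7, 17.6, 30.8 and 29.4 CPM against 6.54, 20.5, 14.7 and 27.0 CPM, so its groups overlapped, with the highest value in positive 1 and the lowest in negative 2. Its log2 fold change of 0.91 ± 0.40 (adjusted p 0.329) was 0.65 without negative 2, 0.60 without positive 1 and 0.34 without both. An annotated gene on the same strand, FSBP, overlaps RAD54B, and reads of the 2 may not be told apart. BRCA2, a large mediator protein of recombination, was at 0.34 (-0.25 to 0.93). BLM, a helicase that dissolves joined strands, was at -0.21 ± 0.37 (SE), and 0.31 without negative 2. In the complex that first binds broken ends, RAD50 was at 0.39 (-0.44 to 1.21), with 10.03 CPM in negative 2 against 27.4 to 55.8 CPM in the other libraries, and at 0.10 without negative 2. NBN, its partner, was the steadiest member of the arm, at 59.3 ± 0.700 CPM among positive and 55.6 ± 6.33 CPM among negative libraries (SD, n = 4; 0.09, interval -0.24 to 0.43).

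**Figure D2:**
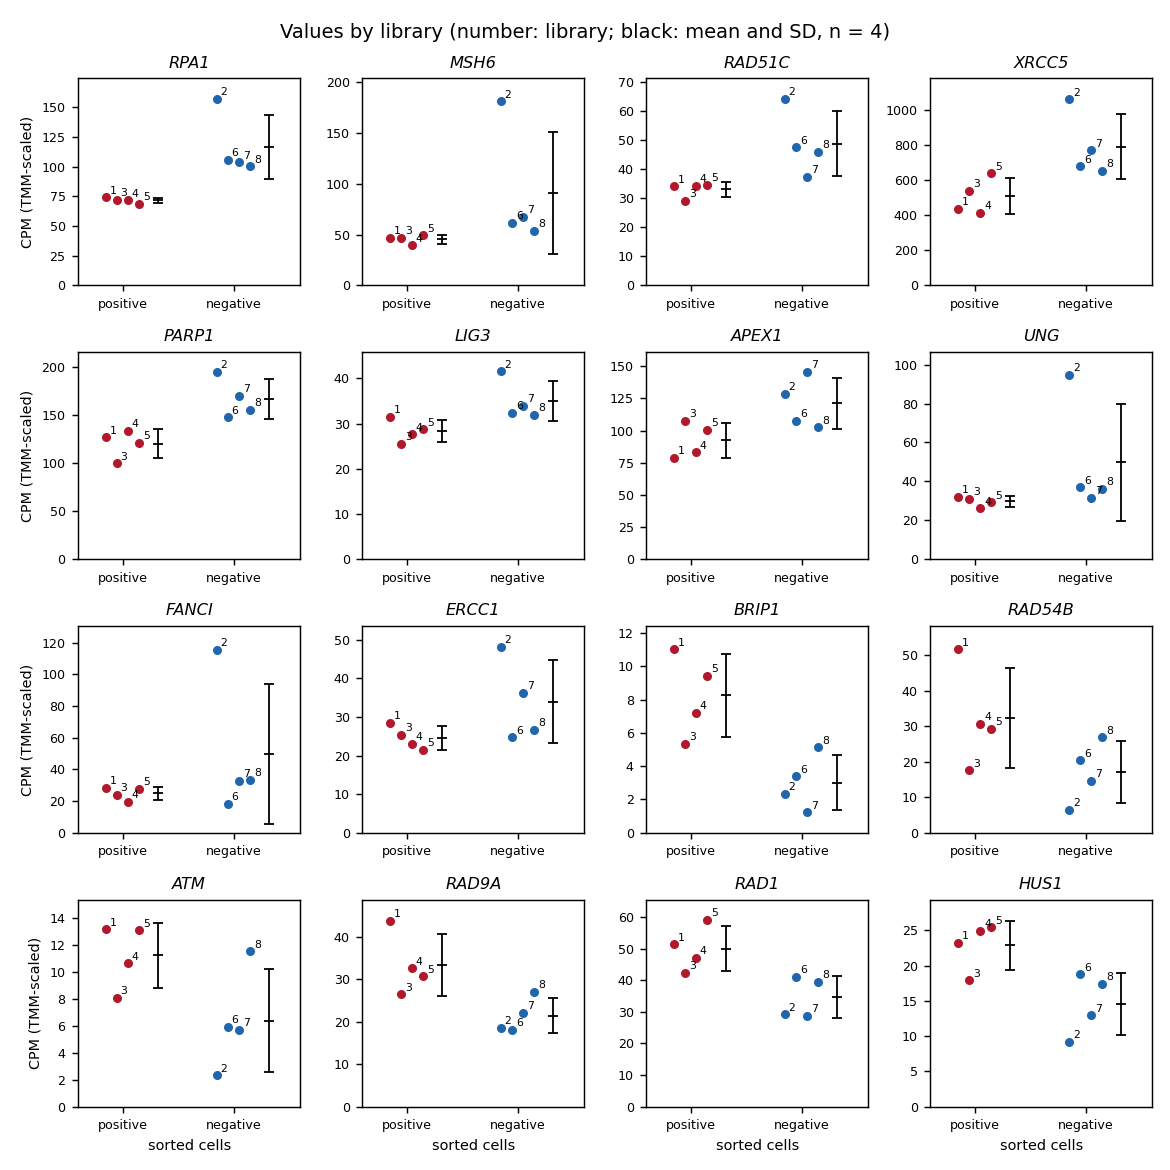
TMM-scaled CPM of 16 genes (vertical axis, from 0) in the 4 positive (red) and 4 negative (blue) libraries, each point marked with its library number, and the mean and SD of the group in black. RPA1 shows 68.4 to 73.9 CPM in positive and 100.2 to 157 CPM in negative libraries; negative 2 is the top point for MSH6, UNG and FANCI and the bottom point for RAD54B, ATM and HUS1.

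In the Fanconi anaemia pathway the estimates furthest below 0, those of FANCI and FANCA, were carried by negative 2. FANCI and FANCD2 form the clamp that closes on DNA at a crosslink once both are ubiquitinated. FANCI was at 28.5, 24.0, 19.6 and 27.9 CPM in positive 1, 3, 4 and 5 and at 115, 18.3, 32.7 and 33.5 CPM in negative 2, 6, 7 and 8. The groups overlapped, since negative 6 was below every positive library. Its log2 fold change of -1.001 ± 0.45 (SE; edgeR adjusted p 0.345) was -0.16 without negative 2. FANCD2 was at 42.3 ± 8.49 and 40.4 ± 13.8 CPM (SD, n = 4 each), at 0.07 (-0.48 to 0.61) and 0.31 without negative 2, and a pseudogene copy is annotated for it. The log2 ratio of FANCI to FANCD2 was 0.99 in negative 2 and between -1.21 and 0.40 in the other libraries (exact two-sided permutation p = 0.2). FANCA, a scaffold subunit of the ubiquitin ligase core, was at 4.53 to 5.84 CPM and 3.38 to 14.4 CPM, at -0.43 (-1.31 to 0.45) and 0.23 without negative 2. FANCL, the ligase subunit itself, hardly varied, at 20.1 to 26.8 and 20.4 to 24.9 CPM, with a log2 fold change of -0.01 (-0.42 to 0.40). The median of the 4 members was -0.22, and 0.12 without negative 2.

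End joining showed a lower level of 1 Ku subunit. XRCC5 encodes Ku80, which with Ku70 (XRCC6) rings a broken end and recruits the kinase PRKDC. XRCC5 (chromosome 2, 216107464 to 216206303) was at 438, 542, 415 and 640 CPM in positive 1, 3, 4 and 5 and at 1063, 681, 772 and 655 CPM in negative 2, 6, 7 and 8. No positive library reached the lowest negative one, but positive 5 and negative 8 came close. Its log2 fold change was -0.64 ± 0.21 (SE; edgeR adjusted p 0.309), and -0.45 without negative 2. XRCC6 was at 342 ± 82.8 and 388 ± 94.6 CPM (SD, n = 4 each), at -0.19 (-0.68 to 0.31), and has 5 annotated pseudogene copies. The log2 ratio of XRCC5 to XRCC6 spread widely in both groups, from -0.06 to 1.25 in positive and 0.56 to 1.63 in negative libraries (exact two-sided permutation p = 0.286). PRKDC was at 380 ± 64.9 and 375 ± 21.2 CPM, at 0.02 (-0.35 to 0.38). LIG4, the ligase that seals the joined ends, was at 11.2 ± 2.17 and 12.4 ± 2.53 CPM, at -0.15 (-0.66 to 0.36), and 0.02 without negative 2. The median of the arm was -0.17, and -0.04 without negative 2.

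In base excision and single-strand break repair all 5 members were below 0 (51.9% of all rows were), and 3 of them were at an unadjusted p under 0.05 (14.4% of all rows). The median was -0.39, and -0.22 without negative 2, again with 5 of 5 below 0. Genes of this route outside the members went both ways. Of 16 tested, 11 were below 0 and 5 above. At an unadjusted p under 0.05 there were 3 lower and 3 higher in positive cells (37.5%, against 14.4% of all rows). XRCC1, at -0.04, turned to 0.019 with upper quartile scaling and to 0.062 with library totals. PARP1 senses strand breaks and builds the poly(ADP-ribose) chains that attract the repair scaffold. It lies on chromosome 1 at 226360691 to 226408079 and was at 127, 99.4, 133 and 121 CPM in positive 1, 3, 4 and 5 and at 194, 147, 170 and 155 CPM in negative 2, 6, 7 and 8. The groups did not overlap, and the log2 fold change was -0.47 ± 0.17 (SE; edgeR adjusted p 0.312) with all libraries and -0.38 without negative 2. Pseudogene copies are annotated for PARP1 and for UNG, and reads may have been divided with them. LIG3, the ligase that seals such nicks, was at 31.5, 25.5, 27.6 and 28.7 CPM against 41.6, 32.3, 34.0 and 31.9 CPM. Its groups were parted by less than 1 CPM, and the log2 fold change was -0.30 (-0.69 to 0.08), and -0.20 without negative 2. XRCC1, the scaffold that holds LIG3, was at 25.7 ± 6.03 and 26.5 ± 4.48 CPM (SD, n = 4 each), at -0.04 (-0.52 to 0.44). The log2 ratio of LIG3 to XRCC1 was 0.17 ± 0.30 and 0.41 ± 0.38 (exact two-sided permutation p = 0.371).

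At the start of the route, UNG removes uracil from DNA and APEX1 cuts the strand at the empty site. UNG was at 32.03, 31.1, 26.1 and 29.2 CPM in positive 1, 3, 4 and 5 and at 94.8, 36.9, 31.5 and 36.2 CPM in negative 2, 6, 7 and 8. Positive 1 lay just above negative 7, and negative 2 was far above the rest. The log2 fold change of UNG was -0.75 ± 0.32 (SE; edgeR adjusted p 0.323), and -0.22 without negative 2. APEX1 was at 78.8, 108, 83.1 and 100.4 CPM against 128, 108, 146 and 103 CPM, with overlapping groups and negative 7 highest. Its log2 fold change was -0.39 ± 0.18 (adjusted p 0.347), and -0.34 without negative 2, so this estimate moved little. In nucleotide excision repair ERCC1, which with ERCC4 cuts the damaged strand on one side, was at 28.5, 25.3, 23.1 and 21.5 CPM against 48.3, 24.7, 36.3 and 26.7 CPM, at -0.47 (-0.98 to 0.04), and -0.23 without negative 2. The helicases ERCC3 and ERCC2, which open the helix as parts of the transcription factor TFIIH, were at -0.32 (-0.86 to 0.22) and -0.0046 (-0.61 to 0.60), and without negative 2 at -0.02 and -0.09. Values of ERCC2 ran from 6.82 to 13.8 CPM in positive and from 8.58 to 15.6 CPM in negative libraries.

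The checkpoint arm had no member at an unadjusted p under 0.05 and no separated groups. ATM, the kinase that answers broken ends, had the smallest p, at 13.2, 8.10, 10.7 and 13.1 CPM in positive 1, 3, 4 and 5 and 2.33, 5.92, 5.71 and 11.6 CPM in negative 2, 6, 7 and 8. Negative 8 lay within the positive range and the other negative libraries below it. The log2 fold change was 0.81 ± 0.38 (SE; edgeR adjusted p 0.354), and 0.55 without negative 2. Its target kinase CHEK2 was at 1.33 to 2.10 and 1.74 to 3.40 CPM, at -0.59 (-1.35 to 0.17) and -0.72 without negative 2, with low counts and 4 annotated pseudogene copies. CHEK1, the effector of ATR, was at 7.14 ± 1.597 and 9.67 ± 2.76 CPM (SD, n = 4 each), at -0.44 (-1.05 to 0.17), and -0.33 without negative 2. The break-site adaptors TP53BP1 and MDC1 were at 0.06 (-0.33 to 0.45) and 0.13 (-0.35 to 0.61). TP53BP1 ranged from 37.4 to 60.1 and from 43.0 to 50.6 CPM, and MDC1 from 24.1 to 45.9 and from 25.7 to 34.9 CPM, with the highest value of both in positive 1.

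A list of 124 other genes of the same routes, 120 of them with a row, gave 114 tested rows. At an unadjusted p under 0.05 there were 17 (14.9%, against 14.4% of all rows), so this list did not stand out by its count. Of these, 6 were lower in positive cells (5.26%, against 6.85% of all rows) and 11 higher (9.65%, against 7.52%). The median of the list was -0.08. The count was 11 without positive 1 (10.4% of all rows), 9 without positive 4 (10.7%), 10 without positive 5 (13.1%) and 11 without negative 7 (10.9%). Groups did not overlap for 7 rows of this list (6.14%, against 9.14% of all rows). Of its 18 checkpoint genes 10 were below 0, with a median of -0.11. At an unadjusted p under 0.05 there were 4 (22.2%), all higher in the positive cells, against 7.52% of all rows. They were RAD9A, RAD1, HUS1 and ETAA1. The first 3 are the subunits of the clamp that is loaded at damaged DNA to start ATR signalling. ETAA1, an activator of ATR, was at 35.5 to 54.1 CPM in positive and 8.43 to 41.1 CPM in negative libraries. Its groups overlapped, with negative 2 lowest, and its log2 fold change was 0.86 ± 0.37 (SE, edgeR adjusted p 0.324). RAD9A was at 43.7, 26.4, 32.5 and 30.7 CPM in positive 1, 3, 4 and 5 and at 18.5, 18.1, 22.1 and 27.0 CPM in negative 2, 6, 7 and 8, at 0.64 ± 0.22 (SE; edgeR adjusted p 0.309). RAD1 was at 51.4, 42.3, 47.2 and 59.1 CPM against 29.2, 41.1, 28.7 and 39.5 CPM, without overlap, at 0.53 ± 0.19 (adjusted p 0.312). HUS1 was at 23.2, 17.9, 24.9 and 25.4 CPM against 9.16, 18.8, 13.0 and 17.4 CPM, at 0.65 ± 0.25 (adjusted p 0.313). RAD9A and HUS1 each overlapped by 1 library of a group. Without negative 2 the 3 estimates were 0.58, 0.47 and 0.50. None passed the adjusted threshold, and that these 3 form 1 complex was noticed after their values were seen. Other genes that act with ATR did not go with them: RAD17, which loads the clamp, was at 0.09 (-0.34 to 0.52), TOPBP1 at -0.19 (-0.62 to 0.24), ATRIP at -0.19 (-1.01 to 0.64) and CLSPN at -0.52 (-1.82 to 0.79).

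Of the other named genes of the routes, 1 of 3 rows of MSH5, a meiotic relative of the mismatch proteins, was at 84.8, 31.1, 25.05 and 29.8 CPM against 9.60, 13.9, 12.8 and 19.1 CPM. Its log2 fold change was 1.62 ± 0.38 (edgeR adjusted p 0.309; DESeq2 adjusted p 0.0232), 1.05 without positive 1, whereas the second tested row of this symbol was at 0.24 ± 0.29. Reads may have been divided between the rows, so the value is uncertain. Lower in positive cells was RAD23B, which helps find bulky lesions, at 149.8 ± 4.54 and 219.6 ± 50.4 CPM (SD, n = 4 each). Its log2 fold change was -0.55 (edgeR adjusted p 0.309), and -0.38 without negative 2. SEM1, a small protein that binds BRCA2 and the proteasome, was at 383 ± 53.8 and 516 ± 54.2 CPM. Its log2 fold change was -0.43 (adjusted p 0.318), and -0.35 without negative 2. The groups of both did not overlap, which held for 6.14% of the tested other genes and 9.14% of all rows. NEIL2, a glycosylase for oxidised bases, was at -0.90 (edgeR adjusted p 0.324), and at -0.36 without negative 2. BABAM2, a subunit of the BRCA1-A complex, was at -0.92 (adjusted p 0.327), with only 7 to 36 counts in a library. The groups of NEIL2 and of BABAM2 overlapped.

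**Figure D3:**
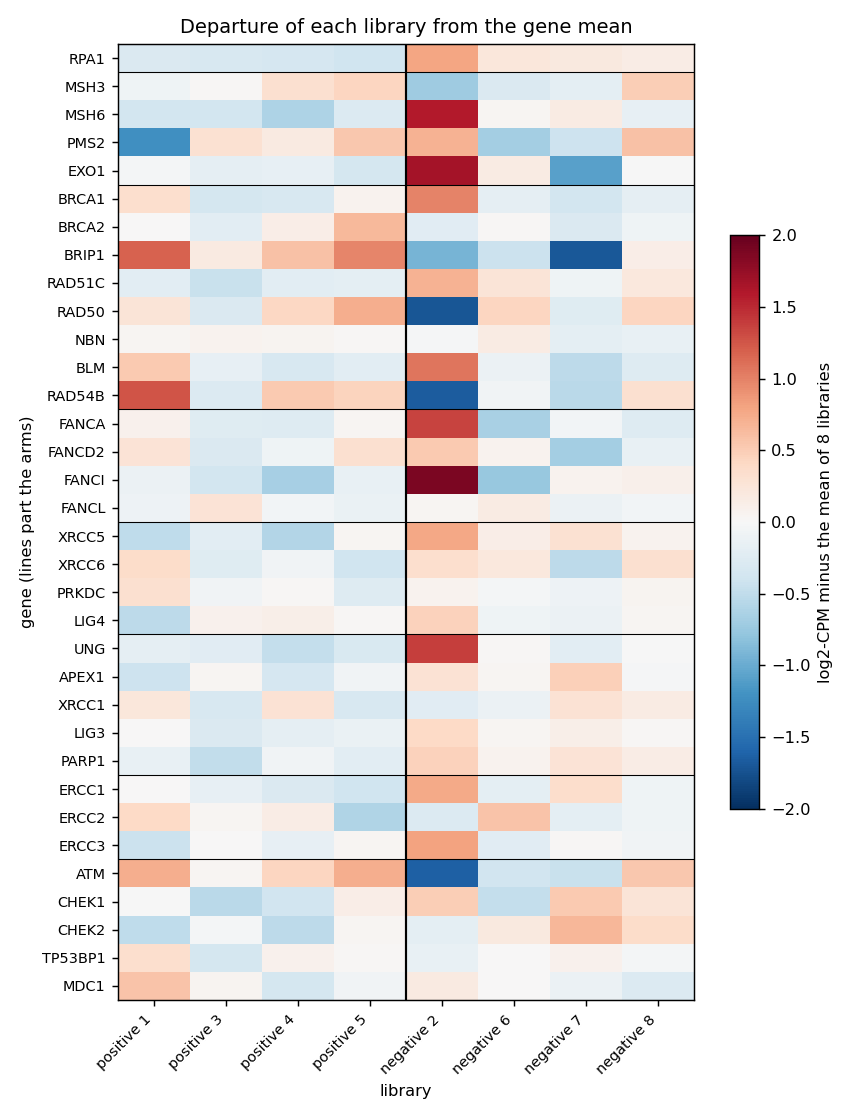
Departure of each library from the mean of the 8 libraries, in log2-CPM, for the 34 members (vertical axis, arms parted by lines) and the 8 libraries (horizontal axis, positive left of the line), red above and blue below the mean. Negative 2 has the darkest cells in both directions and is the highest library for 17 of 34 members.

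Much of the variation among the members lay in single libraries. Negative 2 was the highest library for 17 of 34 members (50%, against 29.4% of all rows) and the lowest for 4 (11.8%, against 26.2%). Relative to the median of the other negative libraries it stood higher by 1.81 for FANCI, 1.68 for EXO1, 1.597 for FANCA, 1.55 for MSH6, 1.38 for UNG, 1.34 for BLM and 1.17 for BRCA1 on the log2 scale. In the same library RAD50 was at -2.14, RAD54B at -1.604 and ATM at -1.25. Across the 8 libraries, Pearson's r with the mean of the S phase markers was highest for BRCA1 (0.95), FANCI (0.94), FANCA (0.94), UNG (0.90), BLM (0.89), MSH6 (0.86), LIG3 (0.85) and ERCC1 (0.82). Without negative 2 these were 0.79, 0.66, 0.64, 0.25, 0.61, 0.10, 0.55 and 0.36. It was lowest for RAD50 (-0.77), MSH3 (-0.62), ATM (-0.62) and RAD54B (-0.53), and without negative 2 these were 0.20, 0.04, 0.50 and 0.64. RPA1 was at 0.71 with all libraries and 0.03 without negative 2, and XRCC5 at 0.62 and -0.07, while BRIP1 was at -0.24 and 0.28. These are descriptions over 8 libraries that share depth and scaling. The S phase mean itself overlapped between groups, at 4.80 ± 0.32 in positive and 5.15 ± 0.69 in negative libraries (SD, n = 4 each).

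By arm, the mean log2-CPM of the members in a library parted the groups only for base excision with single-strand break repair and for RPA1 alone. The base excision mean came to 5.65, 5.49, 5.59 and 5.54 for positive 1, 3, 4 and 5, against 6.21, 5.76, 5.94 and 5.81 for negative 2, 6, 7 and 8, a difference of -0.36. For homologous recombination it was 4.38 ± 0.27 in positive and 4.05 ± 0.25 in negative libraries (SD, n = 4 each), with overlap, and the highest value in positive 1. The remaining arms differed by between -0.24 and 0.04 in their means, with overlapping groups in each. Over all 34 members the mean was 4.69 ± 0.10 and 4.78 ± 0.19.

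**Figure D4:**
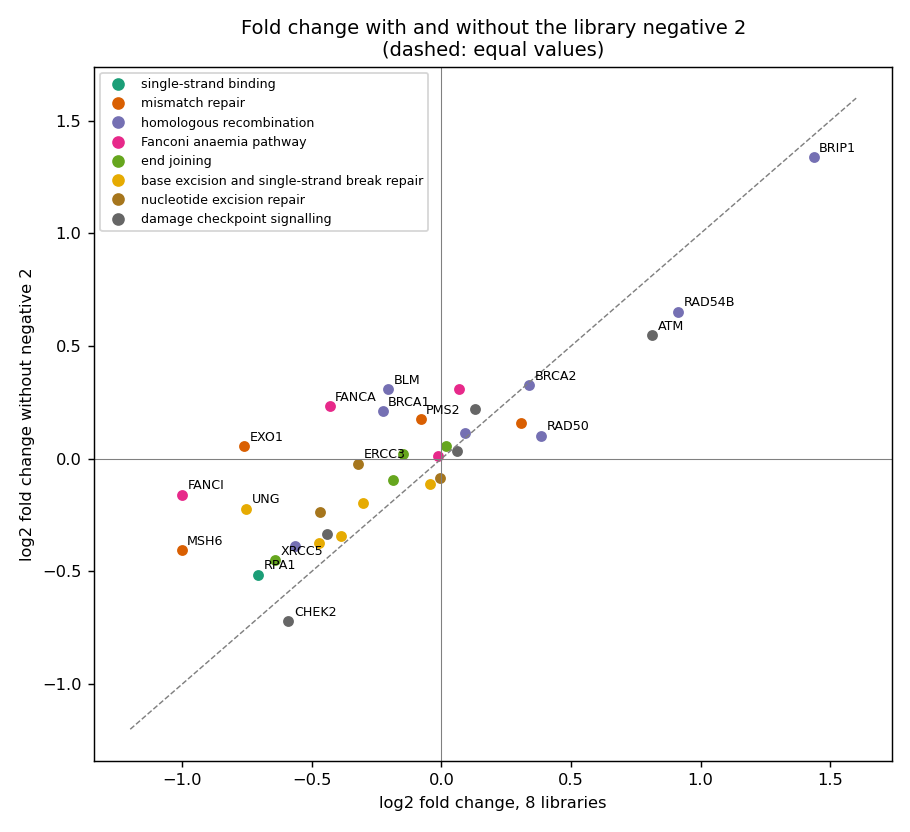
Log2 fold change of each member with all 8 libraries (horizontal axis) and without negative 2 (vertical axis), coloured by arm, with equal values on the dashed line. FANCI, EXO1 and UNG lie far above the line near 0 on the vertical axis, whereas RPA1 (-0.71 and -0.51), XRCC5 (-0.64 and -0.45) and BRIP1 (1.44 and 1.34) keep most of their estimate.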

How the data were processed

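RNA of 8 sorted A549 samples was extracted with Trizol and made into targeted amplicon libraries with an Ion AmpliSeq human transcriptome kit, per the labels' protocols. Fastp 0.20.1 and Salmon 1.9 were used with GRCh38, per the submitters' processing notes; for annotation, summing to genes and strand the sources used here give nothing. Estimated counts, 1 value per gene row and library, were deposited as whole numbers and are not scaled for depth. Of 13841 rows, 11351 passed edgeR's filterByExpr (minimum count 10, total 15). They were tested with edgeR 4.0.16 in R 4.3.3 (TMM scaling, robust quasi-likelihood test, 4 against 4 libraries, Benjamini-Hochberg adjustment over all tested rows, threshold 0.05); DESeq2 1.42.0 and limma 3.58.1 (voom with library weights) were run beside it. Mean log2-CPM values use a prior count of 2, and partner ratios a pseudocount of 0.5. Intervals are 95% confidence intervals of the log2 fold change, with an SE derived from the quasi-likelihood test. They reflect only the spread between these libraries. The methods were checked on simulated data. The closest libraries of 1 group still differed beyond sampling noise (chi-square per degree of freedom 7.98). Older symbols were used where the table had them (SHFM1 for SEM1, BRE for BABAM2).

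The members and lists were chosen with earlier results of these data known. Named in full were members with an unadjusted p under 0.05 or groups without overlap, and the member of smallest p in each arm; of other pathway genes, the 4 of smallest p in each direction. The 8 partner ratios were chosen after the values were seen, and results that need certain genes are not reported here. Of the 34 members, 23 overlap an annotated gene on the opposite strand, from which reads could not be told apart if strand was not used. On the same strand 10 members overlap an annotated gene, among them RAD54B and CHEK1 (with STT3A), and there reads may not be told apart either. Named pseudogene copies exist for 6 members. Promoters are from RefSeq, coordinates from GENCODE 29.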

Additional observations from a re-analysis of the deposited data

Results flagged for a closer look

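Chance flags about 1 in 20 groups of 4 for a sample far from the others, and over all tested rows 7.82% of groups were flagged. Among the 34 members 10 of 68 groups were (14.7%), and in 7 of them the far library was negative 2. It was high for RPA1 (157 CPM), MSH6 (181 CPM), BRCA1 (71.5 CPM), BLM (17.01 CPM), FANCA (14.4 CPM), FANCI (115 CPM) and UNG (94.8 CPM). In the positive cells positive 1 was high for BLM (11.5 CPM), and positive 3 was low for RAD51C (29.1 CPM) and high for FANCL (26.8 CPM).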

How the results depend on the processing

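Scaling, filters, tools and libraries were varied in 11 ways and each library was left out in turn, which gave 637 values for the members. Of these 57 had the other sign, and 20 members never changed sign. By DESeq2's Wald test 52 rows were called, and by every other fit 0, apart from 1 each without negative 6 and without negative 8 (range 0 to 1 over single libraries left out). Members at an unadjusted p under 0.05 numbered 6 without both positive 1 and negative 2, and 6 to 12 with any 1 library left out; other pathway genes numbered 11 and 9 to 25, the lowest without positive 4. The members' median log2 fold change was -0.036 by voom and -0.023 without both libraries, and -0.31 to 0.017 with 1 library left out. For mismatch repair the median was -0.94 at 50 counts or more, where MSH6 alone was left of the arm, 0.17 by voom, 0.13 without both, and -0.65 to 0.11 with 1 left out. For nucleotide excision it was -0.12 by voom and -0.44 to -0.087 with 1 left out, for checkpoint signalling -0.15 by voom and -0.073 to 0.14, and for base excision -0.44 to -0.22. Scaling by library totals alone put the median of all rows at 0.097. The following members changed sign. With upper quartile scaling FANCL was at 0.055, XRCC1 at 0.019 and ERCC2 at 0.058; with library totals PMS2 was at 0.038, FANCL at 0.11, XRCC1 at 0.062 and ERCC2 at 0.11. At 50 counts or more FANCL was at 0.041, XRCC1 at 0.0077 and ERCC2 at 0.048, and with thinned libraries PMS2 was at 0.0096 and FANCL at 0.0062. By voom PMS2 was at 0.40, EXO1 at 0.089, BLM at 0.081, FANCA at 0.018, FANCL at 0.099, PRKDC at -0.054, LIG4 at 0.074 and TP53BP1 at -0.15. Without both libraries PMS2 was at 0.43, EXO1 at 0.0091, BRCA1 at 0.070, BLM at 0.087, FANCA at 0.17, FANCL at 0.053, PRKDC at -0.055, LIG4 at 0.15, ERCC3 at 0.072 and TP53BP1 at -0.071. With 1 library left out the ranges that crossed 0 were -0.44 to 0.31 for BLM, -0.38 to 0.21 for BRCA1, -0.15 to 0.22 for ERCC2, -1.07 to 0.055 for EXO1, -0.66 to 0.23 for FANCA, -0.11 to 0.31 for FANCD2, -0.12 to 0.040 for FANCL, -0.22 to 0.020 for LIG4, -0.073 to 0.26 for MDC1, -0.28 to 0.18 for PMS2, -0.099 to 0.097 for PRKDC, -0.052 to 0.17 for TP53BP1 and -0.15 to 0.050 for XRCC1. The log2 ratio of RAD50 to NBN, 0.46 with all libraries, ranged from -0.034 without negative 2 to 0.73; leaving out libraries for the ratios was added after the data were seen. The cause of these changes was not tested. No paired analysis was run. The library numbers run on across both groups, so they cannot show whether a positive and a negative library came from the same culture, and no source used here states it. With 4 libraries a group, the 95% interval of a member reached a median of 0.57 to either side on the log2 scale, and at most 1.077, which limits the differences that these libraries can show.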
